A study of Mus musculus with 5 samples.

Results

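The Id and Hes repressors examined here were Id1, Id2, Id3, Id4, Hes1, Hes5, Hes6 and Hey1. They are transcription regulators, and all but Hes6 are known to hold back differentiation and to be targets of BMP or Notch signaling. They were chosen by name, with earlier results of these data known. All 8 were found among the 12588 gene symbols or identifiers of the deposited table, with 10 of its 22227 transcripts. The RNA-Seq libraries came from cultures of mouse neural stem/progenitor cells (NSPCs) grown under proliferation conditions with FGF-2 and EGF, each at 20 ng/ml, and without any further treatment. The C57BL/6J mice were of either genotype, with 2 libraries labelled wild type (p75NTR+/+, here WT, litter mates of the mutants) and 3 libraries labelled p75NTR-/-, from mice that lack the p75 neurotrophin receptor in all cells of the animal. The labels give the age as E12.5, while the methods of the study describe adult cells of the subventricular zone. The study describes its RNA-Seq replicates, of which it gives more than the libraries analysed here, as independent preparations.

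Id proteins carry a helix-loop-helix domain but no basic region, so they pair with E proteins and keep them, and the proneural factors that need E proteins as partners, from binding DNA. Hes and Hey proteins do bind DNA and recruit corepressors of the Groucho/TLE family. Hes1, Hes5 and Hey1 are classical targets of the Notch intracellular domain with its DNA-binding partner Rbpj, while the Id genes are textbook targets of BMP receptors and Smad proteins. In NSPCs these repressors are known for maintaining the progenitor state and for favouring an astrocytic over a neuronal fate, with the exception of Hes6, which antagonizes Hes1 and is associated with neuronal differentiation.

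Promoter windows of 250 bases before an annotated start site were read from RefSeq (GRCm38.p6) for 5 of the 8 genes, Id2, Id3, Id4, Hes5 and Hes6. The windows of Hes5 and Hes6 are shown as examples, picked with their values known. Hes5, a direct Rbpj target, varied most between the libraries, and its relative Hes6 varied far less. Hes1, also a Notch target, varied least of the 8 genes and had no window here. Whether a motif bears on the variation of a gene was not tested. The Hes5 window lies at chr4:154960673-154960922 on the forward strand and the Hes6 window at chr1:91413223-91413472 on the reverse strand, and both end at the base before the first base of the listed transcript. Capitals mark the Rbpj motif GTGGGAA or its reverse complement TTCCCAC.
Hes5: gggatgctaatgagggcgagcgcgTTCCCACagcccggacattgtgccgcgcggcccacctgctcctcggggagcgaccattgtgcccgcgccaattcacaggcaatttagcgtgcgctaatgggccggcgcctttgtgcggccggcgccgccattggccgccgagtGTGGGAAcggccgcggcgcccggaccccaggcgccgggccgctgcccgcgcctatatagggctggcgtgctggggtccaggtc
Hes6: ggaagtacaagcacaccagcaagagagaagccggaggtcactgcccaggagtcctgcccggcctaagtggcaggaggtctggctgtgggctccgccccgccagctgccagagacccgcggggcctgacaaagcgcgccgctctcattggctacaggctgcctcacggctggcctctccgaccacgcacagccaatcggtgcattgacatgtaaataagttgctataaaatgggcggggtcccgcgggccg

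The Hes5 window held 2 GTGGGAA matches, at 226 to 220 bases before the start site on the reverse strand and at 83 to 77 bases on the forward strand. GTGGGAA was found on either strand in 5.42% of all 32851 windows of this length, and 2 or more matches were found in 0.161%. The windows of Id2, Id3, Id4 and Hes6 held no match. Those of Id2 and Id3 precede a RefSeq start site that lies within the main listed transcript (ENSMUST00000221761 and ENSMUST00000008016) and overlap its exons. The bases upstream of these 2 transcripts were therefore not read. The Id2 window does lie just upstream of the minor listed transcript ENSMUST00000222667. The GC-rich Smad motif GGCGCC, present in 9.59% of all windows, occurred 4 times in the Hes5 window, once each in those of Id2 and Id4, and overlapped no Rbpj motif. The E-box CAGCTG (13.0% of all windows) was found in the windows of Id2 and Hes6, and the N-box CACAAG (13.1%) in that of Id4. CACGTG (6.02%), CACGCG (7.62%) and CACGAG (5.37%), further sites that Hes and Hey proteins can bind, had no match in any of these windows. The GC content was 71.6% for Hes5 and 64.0% for Hes6 against a median of 52.4% for all windows. A match describes these letters only and is no evidence of binding.

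Several facts of the whole series bear on each value below. The counts behind the table summed to between 11688211 and 14452396 per library, and a count of 3, taken as the limit of detection, equals 2.94 to 3.60 normalized counts. Ngfr, which encodes p75NTR, went against the labels: 0.98 and 2.08 normalized counts in the libraries labelled WT against 9.89, 140.56 and 251.43 in those labelled p75NTR-/-. A sum over transcripts does not show whether the deleted part of Ngfr was read, so the groups are named by their labels throughout. Progenitor markers were abundant in each library, with all 7 of the list found and Fabp7, Vim and Slc1a3 the highest, at a summed level of 7967 to 8918 TPM (deposited transcript abundance corrected for length and depth) in the WT libraries and 8248 to 9393 TPM in the p75NTR-/- libraries. No microglial (of 4) and no endothelial marker (of 3) was listed.

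To compare the repressors with each other, levels were taken per transcript length, as TPM summed over the transcripts of a gene, and averaged over the 5 libraries. Id3 had the highest mean at 146 ± 91.2 TPM (SD, n = 5), followed by Id2 at 128 ± 63.8 TPM. Hes6 (88.2 ± 31.0 TPM), Hes1 (64.2 ± 7.42 TPM) and Hey1 (54.4 ± 21.5 TPM) took the middle. Hes5 (40.9 ± 52.5 TPM) and Id1 (33.1 ± 14.5 TPM) were lower, and Id4 was the lowest at 2.13 ± 1.83 TPM. Only the last step of this order held in all 5 libraries: Id1 exceeded Id4 by 3.53 ± 0.69 on the log2(TPM + 1) scale (SD, n = 5). For the other 6 neighbouring pairs, the higher mean was also the higher value in only 2 or 3 of the 5 libraries, and the mean log2 difference was smaller than its SD. Id2 ranked first in both WT libraries and in p75NTR-/- replicate 4, whereas Id3 ranked first in p75NTR-/- replicates 1 and 2.

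**Figure D1:**
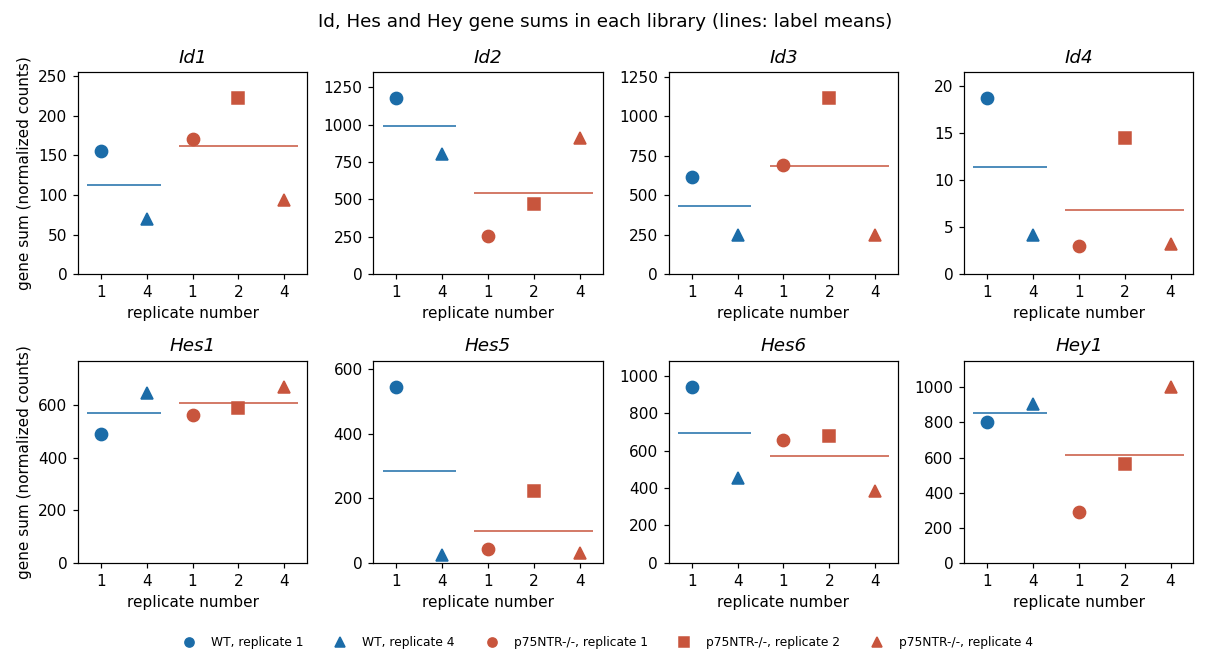
Normalized counts summed per gene (vertical axes, each with its own scale from 0) in each library, by replicate number (horizontal axes); blue marks libraries labelled WT, red those labelled p75NTR-/-, and lines the mean of each label. The labels overlap for all 8 genes, and the 2 libraries numbered 4 (triangles) lie close together.

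To determine whether the repressors differed between WT and p75NTR-/- NSPCs, the normalized counts of each gene were compared on the log2(value + 1) scale with limma across all 12588 gene sums. None of the 8 genes met the criteria of the study (mean of 50 or more, change of 1.5-fold or more, and p below 0.05 after Benjamini-Hochberg adjustment over all gene sums). Among all gene sums 0.00794% met them, a single one, Gm15446, named here only because the count is so small. This count is that of the limma fit. The study applied its criteria to its own DESeq2 fit. Its supplementary lists, given by transcript, hold many entries with a DESeq2 adjusted p below 0.05. At an unadjusted p below 0.05 the limma count was also 0 of the 8 genes, against 2.08% of all gene sums. The labels overlapped for each of the 8 genes, while 15.0% of all gene sums did not overlap. On the log2 scale the means of 3 repressors were higher and those of 5 were lower in the p75NTR-/- libraries, with a median difference of -0.44 against 0.00 (0.0039) over all gene sums. This median rests on single libraries: without WT replicate 1 it was 0.30. Whether fewer cells of a type or less RNA per cell lies behind a lower level cannot be told apart in bulk RNA.

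Id1 and Id3, the Id genes most often used as a readout of BMP receptor activity, shared a pattern in which the libraries numbered 4 were low. Id1 had 156 and 69.7 normalized counts in WT replicates 1 and 4, and 170, 222 and 94.0 in p75NTR-/- replicates 1, 2 and 4. The label means were 113 ± 61.1 (SD, n = 2) and 162 ± 64.5 (SD, n = 3). With a log2 difference of 0.54 (SE 0.51, limma adjusted p = 0.934), the difference was about the size of its error.

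Id3 ranged more widely, with 613 and 251 normalized counts in WT replicates 1 and 4 and 692, 1112 and 248 in p75NTR-/- replicates 1, 2 and 4. Its 2 libraries numbered 4 were nearly equal and the lowest of the 5, and p75NTR-/- replicate 2 was the highest. The label means of 432 ± 256 (SD, n = 2) and 684 ± 432 (SD, n = 3) differed by 0.55 on the log2 scale (SE 0.75, limma adjusted p = 0.934). Id1 and Id3 were the only ones of the 8 genes whose libraries numbered 4 both lay at least 1.5-fold below the other 3 libraries, by 1.66-fold for Id1 and 2.45-fold for Id3. Over all gene sums 2.34% did so. No repressor lay as far above the others in both libraries numbered 4, as 4.62% of gene sums did.

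Hes6, the antagonist of Hes1, was also lower in the libraries numbered 4. It had 940 and 451 normalized counts in WT replicates 1 and 4 and 655, 679 and 385 in p75NTR-/- replicates 1, 2 and 4, so that both libraries numbered 4 were below the other 3, by at least 1.45-fold. The label means were 696 ± 346 (SD, n = 2) and 573 ± 163 (SD, n = 3), and the log2 difference was -0.23 (SE 0.43, limma adjusted p = 0.952).

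The summed markers of the oligodendrocyte lineage were also lowest in the libraries numbered 4. Of the 5 markers, Olig1, Olig2 and Pdgfra were listed and Sox10 and Mbp were not. Their summed level was 736 TPM in WT replicate 1 and 627 and 940 TPM in p75NTR-/- replicates 1 and 2, but 358 and 339 TPM in the libraries numbered 4. Olig1 and Olig2 make up most of this sum, and only Olig2 lay at least 1.5-fold lower in both libraries numbered 4. Pdgfra did not follow the split, with 113 and 38.5 normalized counts in WT replicates 1 and 4 and 34.6, 72.1 and 50.7 in p75NTR-/- replicates 1, 2 and 4. The part of these cells in the values of Id1, Id3 and Hes6 was not tested.

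Id2 and Hey1 had their lowest values in p75NTR-/- replicates 1 and 2. Id2, the Id protein that is also known to bind the retinoblastoma protein, had 1176 and 805 normalized counts in WT replicates 1 and 4 and 258, 466 and 910 in p75NTR-/- replicates 1, 2 and 4. The first 2 p75NTR-/- libraries were below both WT libraries, and p75NTR-/- replicate 4 lay between these. The label means were 990 ± 262 (SD, n = 2) and 545 ± 333 (SD, n = 3). The log2 difference of -1.02 (SE 0.56) was the largest in size among the 8 genes and had an unadjusted p of 0.129 and an adjusted p of 0.934 in limma.

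Hey1, a Notch target expressed in progenitors, had 804 and 902 normalized counts in WT replicates 1 and 4 and 287, 562 and 1002 in p75NTR-/- replicates 1, 2 and 4. Here p75NTR-/- replicate 4 was the highest library of all, and replicates 1 and 2 were the lowest. The label means of 853 ± 69.4 (SD, n = 2) and 617 ± 360 (SD, n = 3) differed by -0.64 on the log2 scale (SE 0.54, limma adjusted p = 0.934).

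The summed astrocyte markers were lowest in the same p75NTR-/- replicates 1 and 2. All 5 were listed, with Aldh1l1, Aldoc and S100b the most abundant, and their summed level was 1344 and 820 TPM in WT replicates 1 and 4 and 612, 649 and 864 TPM in p75NTR-/- replicates 1, 2 and 4. S100b did not follow this order, with 1421 and 347 normalized counts in the WT libraries and 475, 369 and 410 in p75NTR-/- replicates 1, 2 and 4. Gfap, named after its values were seen, had 241 and 680 normalized counts in the WT libraries and 11.9, 1.20 and 746 in p75NTR-/- replicates 1, 2 and 4. The means of all 5 markers were lower in the p75NTR-/- libraries, with a median log2 difference of -0.83. No astrocyte marker met the criteria, and Aldoc alone had an unadjusted limma p below 0.05 (0.0474, adjusted 0.934). Aldoc was also the only 1 of the 5 whose labels did not overlap, against 15.0% of all gene sums. The part of astrocytic cells in the values of Id2 and Hey1 was not tested.

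Hes5 and Id4 were high in a single library of each label. Hes5, the repressor most closely tied to Notch activity in neural progenitors, had 546 and 25.0 normalized counts in WT replicates 1 and 4 and 43.5, 222 and 30.6 in p75NTR-/- replicates 1, 2 and 4. These values rest on 556, 24, 44, 185 and 29 counts. The spread within each label was as large as the mean or larger, at 285 ± 368 (SD, n = 2) and 98.8 ± 107 (SD, n = 3), and the log2 difference of -0.81 had an SE of 1.54 (limma adjusted p = 0.953). Without WT replicate 1 the difference turned to 1.39.

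The highest Hes5 library exceeded the lowest by 21.9-fold. Of the 10786 gene sums with a mean of at least 50, only 33 (0.306%) had a larger range on the log2 scale. Hes5 is itself a marker of the progenitor list, in which the other genes varied far less. Fabp7 ran from 35613 to 39744 normalized counts, Slc1a3 from 11597 to 18280 and Vim from 20556 to 44562. Nes, named after its values were seen, varied most of these others, from 8704 to 23123 (2.66-fold).

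Id4 was barely detected and was the only one of the 8 genes with a mean below 50, at 8.67 normalized counts. It had 19 and 4 counts in WT replicates 1 and 4 and 3, 12 and 3 counts in p75NTR-/- replicates 1, 2 and 4, which correspond to 18.7, 4.16, 2.97, 14.4 and 3.17 normalized counts. The same 2 libraries as for Hes5 were the highest, while p75NTR-/- replicates 1 and 4 stood at the limit of detection. The label means were 11.4 ± 10.2 (SD, n = 2) and 6.85 ± 6.55 (SD, n = 3), with a log2 difference of -0.67 (SE 0.86, limma adjusted p = 0.934). The log2(value + 1) scale understates changes at such low levels.

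Hes1, the repressor that oscillates in dividing progenitors, was the steadiest of the 8 genes. It had 491 and 646 normalized counts in WT replicates 1 and 4 and 560, 589 and 668 in p75NTR-/- replicates 1, 2 and 4. The highest library exceeded the lowest by only 1.36-fold, and 68.2% of the gene sums with a mean of at least 50 had a larger range. The label means of 568 ± 110 (SD, n = 2) and 605 ± 55.8 (SD, n = 3) differed by 0.10 on the log2 scale (SE 0.20, limma adjusted p = 0.955).

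**Figure D2:**
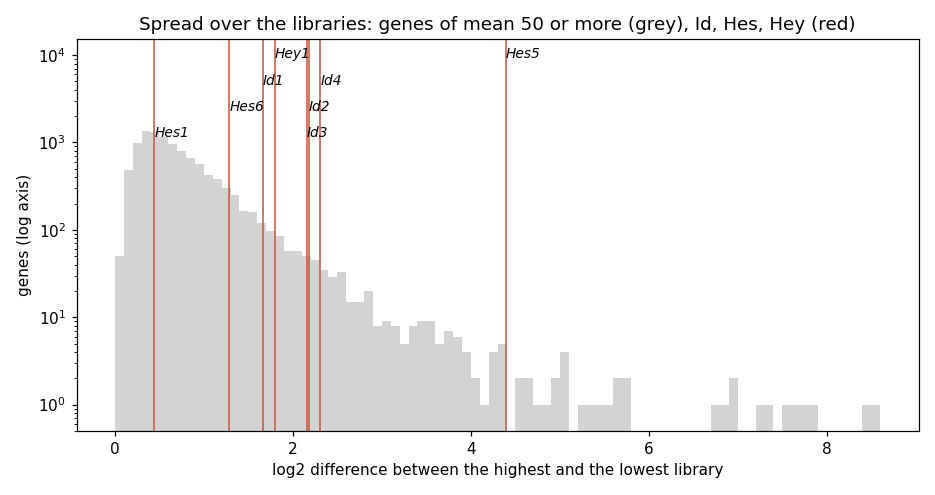
Range of each gene over the 5 libraries, as the log2(value + 1) difference between its highest and its lowest library (horizontal axis), for the 10786 genes with a mean of at least 50 normalized counts (grey; vertical log axis, number of genes per bin). Red lines mark the 8 repressors (Id4, with a lower mean, is not among the grey genes): Hes1 lies at 0.44 within the bulk of genes, and Hes5 at 4.40 far into the upper tail.

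Apart from Hes1, the repressors had ranges above that of most genes. The median ratio of the highest to the lowest library was 3.99 for the 8 genes against 1.52 for all gene sums with a mean of at least 50. The 8 genes include Id4, which has a lower mean and whose ratio of 6.28 rests on 3 to 19 counts. Over all gene sums above 0 in every library, the median ratio was 1.60. A larger range than that of Hes6 was seen in 12.8% of these gene sums, of Id1 in 6.55%, of Hey1 in 5.22%, of Id3 in 3.10% and of Id2 in 2.98%.

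Comparisons between the labels within a replicate number gave different pictures for numbers 1 and 4, the only ones present in both labels. Within number 1, Hes5 was lower in the p75NTR-/- library by a log2 difference of -3.62, Id2 by -2.18, Hey1 by -1.48 and Hes6 by -0.52, whereas Id1 (0.12), Id3 (0.17) and Hes1 (0.19) were nearly equal. Id4 had a log2 difference of -2.31 that rested on 19 against 3 counts, a ratio of 6.28 with a 95% exact counting interval of 1.85 to 33.1. Within number 4, all log2 differences were small: 0.28 for Hes5, 0.18 for Id2, 0.15 for Hey1, 0.43 for Id1, -0.014 for Id3, 0.05 for Hes1, -0.23 for Hes6 and -0.31 for Id4. The median size of the difference over the 8 genes was 1.00 within number 1 and 0.20 within number 4, against 0.38 and 0.11 over all gene sums. Each of these values compares 1 library with 1 other and has no replicate check.

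**Figure D3:**
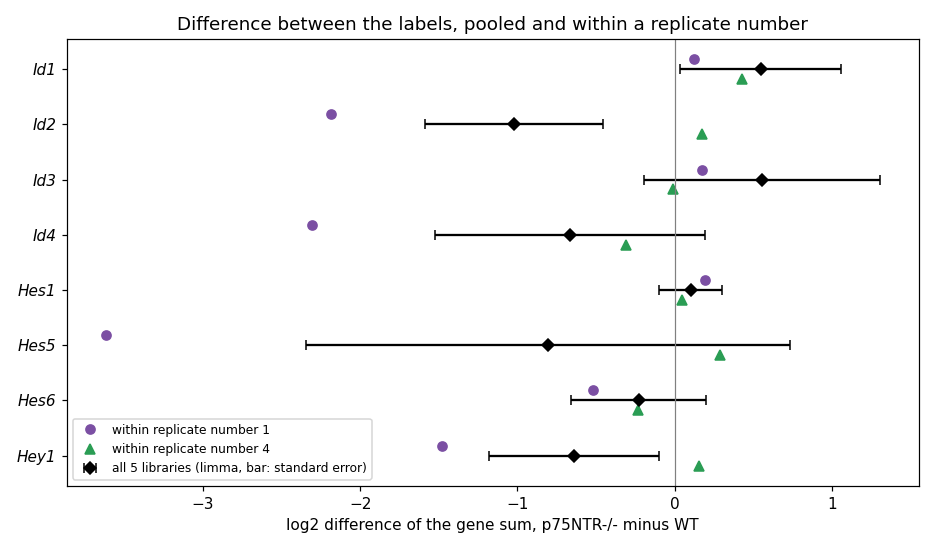
Difference between the labels on the log2(value + 1) scale (p75NTR-/- minus WT, horizontal axis) for each gene, over all 5 libraries (black diamonds, bars: standard error from limma), within replicate number 1 (circles) and within replicate number 4 (triangles). The triangles lie between -0.31 and 0.43 for all 8 genes, while the circles reach -3.62 for Hes5.

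The libraries numbered 4 were also set against the rest of their own label, each time as a single library. In WT the difference of replicate 4 from replicate 1 was -4.40 for Hes5, -1.93 for Id4, -1.29 for Id3, -1.15 for Id1 and -1.06 for Hes6 on the log2 scale. In the p75NTR-/- libraries, where replicate 4 was set against the mean of replicates 1 and 2, it was -1.66, -0.91, -1.82, -1.04 and -0.79 for the same 5 genes. Id2 differed by -0.55 in WT and by 1.39 in p75NTR-/-, Hey1 by 0.17 and 1.32, and Hes1 by 0.40 and 0.22. Neither the labels nor the methods say what a replicate number stands for.

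All 10 listed transcripts of the repressors are annotated as protein-coding on GRCm38, and none met the criteria in the transcript-level limma fit, in which 0.0135% of 22227 transcripts did. None had an unadjusted p below 0.05 (3.14% of all transcripts), and the labels overlapped for each of them (16.6% of all transcripts did not overlap). Id1 (chromosome 2, 152736251 to 152737410, forward strand) was represented by the spliced ENSMUST00000038368 and the single-exon ENSMUST00000109824, which retains the intron. The spliced transcript carried nearly all of the signal, with 65.5 to 220 normalized counts against 2.40 to 10.9. Id2 (chromosome 12, 25093799 to 25097140, reverse strand) was represented by the spliced ENSMUST00000221761 with 252 to 1168 normalized counts and the single-exon ENSMUST00000222667 with 2.40 to 7.85. Salmon divided the reads between such overlapping transcripts by estimation, so that their separate values are uncertain.

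The other 6 genes had a single listed transcript each. For Id3 (ENSMUST00000008016, chromosome 4, 136143497 to 136145392, forward strand), Id4 (ENSMUST00000021810, chromosome 13, 48261228 to 48266026, forward strand), Hes1 (ENSMUST00000023171, chromosome 16, 30065340 to 30067796, forward strand) and Hes5 (ENSMUST00000049621, chromosome 4, 154960923 to 154962371, forward strand) it spans 3, 3, 4 and 3 exons. The Hes6 transcript (ENSMUST00000086851, chromosome 1, 91411483 to 91413222, reverse strand) has 4 exons and no exonic base outside other annotated transcripts of the gene, and the Hey1 transcript (ENSMUST00000042412, chromosome 3, 8663359 to 8667256, reverse strand) has 5 exons.

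For each repressor, the genes with the most similar pattern were those with the smallest root mean square difference of the log2 values, each centred on its own mean over the 5 libraries, among gene sums with a mean of at least 50. Nrarp, a feedback inhibitor of Notch, came first for Id4 at 0.25, followed by the transcription factor Sox21 (0.32) and the antiproliferative gene Btg2 (0.36). The pattern of Id4 rests on only 3 to 19 counts per library, so counting error makes its order of similar genes uncertain. Nrarp had 92.3 and 31.2 normalized counts in WT replicates 1 and 4 and 26.7, 119 and 28.5 in p75NTR-/- replicates 1, 2 and 4. For Hes5, Prr18 (0.75), the gap junction gene Gjd2 (0.75) and the chemokine receptor gene Ackr3 (0.75) came closest, which is still far, and the closest of the other repressors was Id4 at 0.84.

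Id1 came closest to Litaf (0.06), Ets1 (0.11) and Chst12 (0.12), and Id3 to Nrgn (0.23), Mex3b (0.23) and Fmnl3 (0.26). Id1 was the 11th closest gene to Id3 of 10785, at 0.30, but Id3 only the 142nd closest to Id1. Id2 came closest to Kcna6 (0.14), Mxi1 (0.15) and Zbtb20 (0.15), and Hey1 to Tbl2 (0.08), Dgat2 (0.08) and Bcar1 (0.10). Hey1 was the 55th closest gene to Id2, again at 0.30, and Id2 the 134th closest to Hey1. Hes6 was nearest to Rps6ka5 (0.03), Trp53inp1 (0.05) and Uros (0.06), and Hes1 to Tpgs2, Rybp and the ribosomal protein gene Rpl4, each at 0.02. A gene of small range, such as Hes1, has many close genes by this measure, and the values are a description only.

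The remaining components of the Notch pathway were examined next. Of 20 ligands, receptors and nuclear factors, 18 were listed and none met the criteria, with 4 higher and 14 lower in the p75NTR-/- libraries and a median log2 difference of -0.25. None had an unadjusted limma p below 0.05, and the labels did not overlap for 3 of the 18, a share near the 15.0% of all gene sums. Notch1, the receptor with the highest level of the list, had 4831 and 2573 normalized counts in WT replicates 1 and 4 and 1971, 3275 and 2952 in p75NTR-/- replicates 1, 2 and 4, with a log2 difference of -0.40 (SE 0.37, adjusted p = 0.934 in limma). Dner, a Notch ligand of neurons, differed by -0.21 and the glycosyltransferase Lfng, which tunes ligand binding, by 0.25. As for Hes5, WT replicate 1 was the highest library for Notch1, whose log2 difference was -1.29 within number 1 and 0.20 within number 4. Over the 18 genes the median size of the difference was 0.83 within number 1 and 0.17 within number 4.

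Of 6 further Notch targets 5 were listed, none met the criteria, and none had an unadjusted p below 0.05. The 5 means were lower in the p75NTR-/- libraries (median log2 difference -0.39). The labels did not overlap for 1 of the 5, Dtx1, against 15.0% of all gene sums. The median size of the difference between the labels was 1.17 within number 1 and 0.098 within number 4. The receptor Notch3, itself a target, differed by -0.39, the ubiquitin ligase genes Dtx4 by -0.09 and Dtx1 by -0.41. Within the wider Hes and Hey family 3 of 8 genes were listed, none of which met the criteria or had an unadjusted p below 0.05, with a median log2 difference of -0.68. Bhlhe40, a clock-related repressor, had 3171 and 6038 normalized counts in WT replicates 1 and 4 and 1744, 2325 and 6876 in p75NTR-/- replicates 1, 2 and 4. Its relative Bhlhe41 had 389 and 829 against 155, 249 and 885, so that in both genes the libraries numbered 4 were the highest, by at least 1.90-fold and 2.13-fold. Hey2, a close homolog of Hey1 that counts in this list and among the further Notch targets, was low, with 63.8 and 46.8 normalized counts against 15.8, 54.1 and 44.4.

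**Figure D4:**
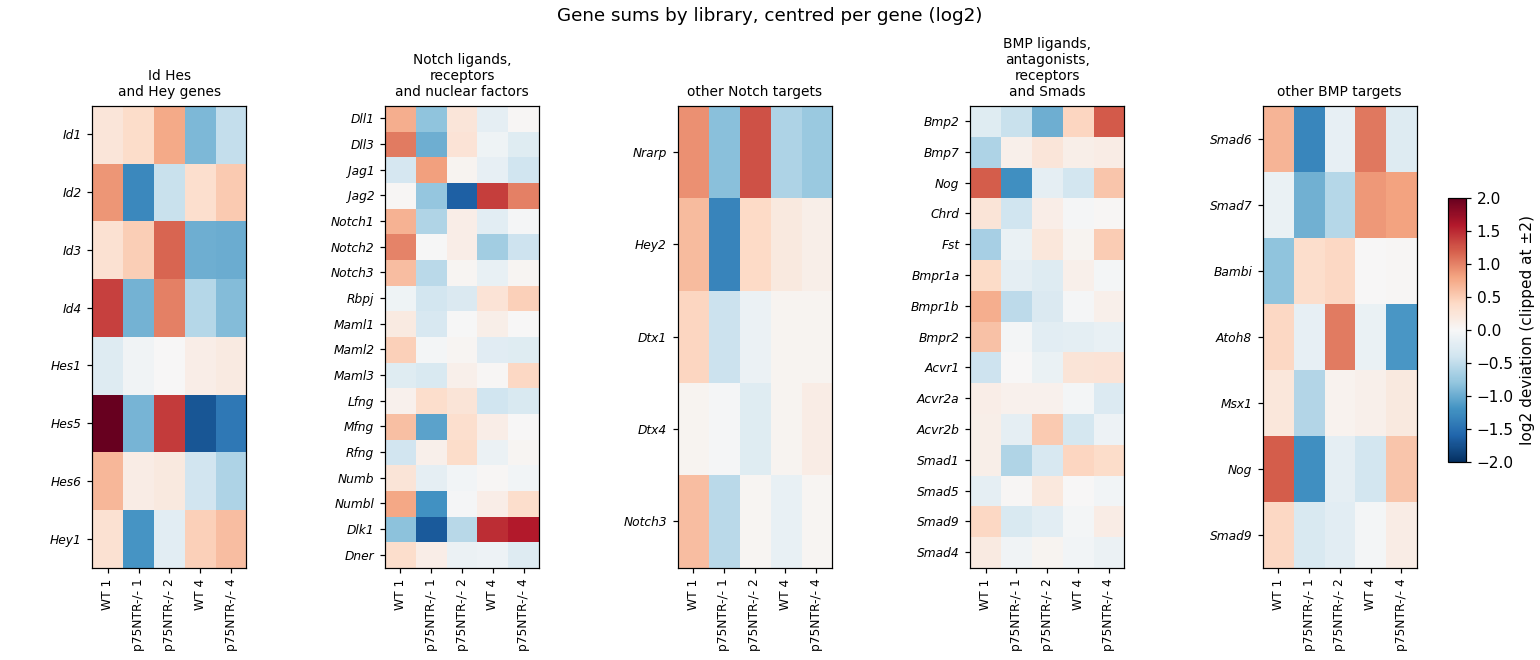
Log2(value + 1) of each gene minus its own mean over the 5 libraries (colour, clipped at 2 in either direction), for the repressors and for the listed genes of the Notch and BMP lists, with libraries in columns ordered by replicate number (1, 2, 4). Hes5 spans nearly the whole colour scale and Hes1 hardly any of it; Notch3, Nog and Smad9 appear in 2 blocks each.

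BMP signaling, the pathway that controls the Id genes, had 15 of 20 ligands, antagonists, receptors and Smads listed. None met the criteria or had an unadjusted limma p below 0.05, with 5 higher and 10 lower in the p75NTR-/- libraries and a median log2 difference of -0.16. The median size of the difference was 0.56 within number 1 and 0.13 within number 4. Smad5, a Smad activated by BMP receptors, differed by 0.15 (SE 0.17). The type I receptor Bmpr1a had 1841 and 1518 normalized counts in WT replicates 1 and 4 and 1245, 1179 and 1383 in p75NTR-/- replicates 1, 2 and 4. Its log2 difference was -0.40 (SE 0.18, limma adjusted p = 0.934). It was the only 1 of the 15 whose labels did not overlap, against 15.0% of all gene sums. The type II receptor Bmpr2 differed by -0.33 (SE 0.27).

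Of 9 further BMP targets 7 were listed and none met the criteria. In the p75NTR-/- libraries 1 was higher and 6 were lower, with a median log2 difference of -0.31. The labels did not overlap for 2 of the 7, Bambi (higher in p75NTR-/-) and Smad6 (lower), against 15.0% of all gene sums. Bambi, a pseudoreceptor and the only one with a mean above 50, had 37.3 and 66.6 normalized counts in WT replicates 1 and 4 and 85.1, 88.9 and 67.6 in p75NTR-/- replicates 1, 2 and 4, with a log2 difference of 0.67 (SE 0.30, limma adjusted p = 0.934). Smad9 differed by -0.31 and the inhibitory Smad7 by -0.61. Smad6, named after its values were seen, was the only gene of the list with an unadjusted limma p below 0.05 (0.0162, adjusted 0.934), at 0 to 4.16 normalized counts.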

How the data were processed

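RNA-Seq was measured in 5 libraries. Per the labels, stranded mRNA libraries were made from 500 ng of RNA, and the authors quantified transcripts with Salmon 0.10.2 using Ensembl transcripts of GRCm38.p6 and normalized with DESeq2 1.22.0 in R 3.6.1. In the deposited signal columns a count was divided by a size factor and 0.5 was added, and this 0.5 was subtracted to give normalized counts. The authors' TPM values were used for levels between genes. The deposited baseMean (a score), log2 fold change, p-value and adjusted p-value are the authors' own and were not used, and 0 columns of samples were left unused. Repeated lines (303 of 22530) were dropped, leaving 22227 transcripts, which were summed by symbol. In each library 100% of the values were whole multiples (tolerance 0.1 counts) of 0.981 to 1.20 normalized counts.

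The labels were compared with limma 3.58.1 (R 4.3.3) on log2(value + 1), without a filter or covariate, across all gene sums or transcripts, with Benjamini-Hochberg adjustment. The fit was tested on simulated data. P-values measure the spread between these libraries. An exact permutation test of 2 against 3 libraries cannot go below p = 0.1. A single 95% counting interval, Clopper-Pearson, covers counting error only. Coordinates are those of the GENCODE annotation of GRCm38, matched by identifier for 10 of 10 transcripts. The text names the 8 genes, list genes that met the criteria, otherwise the 3 most abundant of each list, the 3 most similar genes for each of the 8 genes, and Ngfr; others are marked as chosen after their values were seen. The genes, lists and tests were chosen with earlier results of these data known. Python 3.11.15, pandas 2.3.3, numpy 2.4.6 and matplotlib 3.10.9 were used. An item of a gene list is not reported here.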

Additional observations from a re-analysis of the deposited data

How the results depend on the processing

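None of the 8 repressors and none of their 10 transcripts met the criteria under any of the 12 alternative fits (11 for transcripts) or with no minimum on the mean, with a lowest adjusted p of 0.178 (without both libraries numbered 4, an alternative chosen after seeing the data) and a lowest unadjusted p of 0.0197 (Id2 without p75NTR-/- replicate 4). The number of gene sums called was 1, and 0 with the replicate number as a block, with summed TPM and without both libraries numbered 4; leaving out each library gave 0 to 1, with 0 without WT replicate 1 or p75NTR-/- replicate 2. The median log2 difference of the 8 genes was -0.44, and ranged from -0.66 to 0.30 over the fits that lacked 1 library, with 0.30 without WT replicate 1. Without both libraries numbered 4 it was -0.75.

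Signs changed in 7 cases, all by leaving out 1 library. Over the fits that lacked 1 library, the log2 difference ran from -0.10 to 0.30 for Hes1, -3.01 to 1.39 for Hes5, -0.76 to 0.30 for Hes6, -1.63 to 0.30 for Id4, -0.031 to 1.12 for Id1 and -0.090 to 1.20 for Id3. The reversed values of Hes1 (-0.10), Hes5 (1.39), Hes6 (0.30) and Id4 (0.30) were those without WT replicate 1, the value of 0.033 for Hes6 that without p75NTR-/- replicate 4, and those of Id1 and Id3 those without WT replicate 4. The cause was not tested. Id2 (-1.76 to -0.58) and Hey1 (-1.08 to -0.18) were lower in the p75NTR-/- libraries in each of the 12 fits. A lone library was assumed to vary like the other group.

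The labels do not say that a replicate number marks a shared litter or day. Deviations from the group means correlated at 0.26 for number 1 and 0.48 for number 4 across 10786 genes, which are not independent. The deviations of the 2 WT libraries mirror each other, so the 2 correlations are not separate checks either. With 2 shared numbers the samples were taken to share only a number, and the block changed no call on the 8 genes. The planned edgeR and DESeq2 fits were not run: whole counts came out only after 0.5 was subtracted, and no count model was fitted to them. Id4 has no value under a filter at a mean of 10. For Id4 the depth limits what can be seen.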

Other observations

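The genes of the proteins with which the repressors work showed no call. The 3 E proteins that Id proteins bind were listed, and 0 met the criteria or had an unadjusted limma p below 0.05, with a median log2 difference of 0.02. Tcf12 had 6538 and 6531 normalized counts in WT replicates 1 and 4 and 6592, 6606 and 6629 in p75NTR-/- replicates 1, 2 and 4. Its labels did not overlap at a log2 difference of only 0.02 (SE 0.15, limma adjusted p = 0.991). It was the only 1 of the 3 without overlap, against 15.0% of all gene sums. Tcf4 ranged from 3833 to 5518 and Tcf3 from 1180 to 1595 normalized counts.

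Of 11 symbols in the list of corepressors, 10 were found, and 0 met the criteria or had an unadjusted limma p below 0.05. The symbol not found, Tle5, is another name of Aes, so no gene of this list was missing. The median log2 difference was 0.18, with 7 higher and 3 lower in the p75NTR-/- libraries. Hdac2 (2853 to 3851 normalized counts), Aes (2349 to 2945) and Hdac1 (1827 to 2434) were the most abundant, and in each p75NTR-/- replicates 1 and 2 were the highest libraries.

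Among transcription factors that Id and Hes proteins oppose, none of those described here met the criteria or had an unadjusted limma p below 0.05. Olig2 had 1210 and 704 normalized counts in WT replicates 1 and 4 and 1774, 1987 and 701 in p75NTR-/- replicates 1, 2 and 4, low in the libraries numbered 4 as were Id1 and Id3. Neurod1 did not exceed 19.8 normalized counts. Of 5 neuroblast or neuron markers, Tubb3 and Gad1 were listed, with sums of 30.2 to 48.0 TPM in the WT and 17.0 to 47.6 TPM in the p75NTR-/- libraries. Of 4 mural or fibroblast markers Col1a1 was listed, at 10.9 to 37.3 normalized counts.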
